A study of Rattus norvegicus with 7 samples.

Results

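Cathepsin D (clone RGIAB71), cathepsin Y (RNABL31), cathepsin K (RNABQ32) and myelencephalon specific protease (RNABV39) are 4 proteases that were followed in rat cerebral cortex after a contusion. They were found by clone ID among the 6240 features of the array, and all 4 were present. RNA of male Sprague Dawley rats was measured on 2-colour cDNA arrays, with 1 animal per array. A weight drop injured the cortex on 1 side, and the impact area with the cortex around it was compared with the uninjured cortex of the other side of the same animal. The 1 dpi (day post injury) group held 3 animals and the 4 dpi group 4 animals, each injured through a craniotomy under anaesthesia. The age of the animals is not given in the sources used here.

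Each value was the log2 ratio of injured to uninjured cortex, so that 0 stands for equal signal on both sides and 1 for a doubling on the injured side. The ratio says nothing of the level of a gene, and the tissue could not be checked against markers of cortex. The control was the other side of an injured brain, and no uninjured animal was on the arrays. In such bulk tissue, a change in the number of cells of a type and a change in RNA per cell cannot be told apart. Arrays gave a value for 2332 to 5208 features. Replicate 1 of 4 dpi stood apart from the other arrays of its group for several injury genes, and values without it are given beside the results it moved most.

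Cathepsins are proteases that work mainly in the acid lumen of lysosomes, where they break down proteins taken up by the cell or delivered by autophagy. Cathepsin D is an aspartic protease found in lysosomes of nearly all cells, and its loss in the brain leads to a lysosomal storage disease of neurons. Cathepsin Y, also called cathepsin X or Z, is a cysteine protease that removes residues from the carboxyl end of proteins, while cathepsin K is a cysteine protease that cleaves collagen and elastin and is best known from bone-resorbing osteoclasts. Myelencephalon specific protease, also called kallikrein 6, is no cathepsin but a secreted serine protease of the trypsin type, made in the central nervous system largely by oligodendrocytes and able to cut myelin proteins.

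The promoters of the 4 genes are shown so that the sequence upstream of each can be read beside its response, and each is the stretch just before the gene in RefSeq on the rat assembly GRCr8. The genes were found as Ctsd, Ctsz, Ctsk and Klk6, 4 of 4 symbols matched, by name and not by the sequence of the clones. Capitals mark CACGTG, the core of the E-box that factors such as TFEB and USF can bind, and the GC-box GGGCGG, which reads CCGCCC on the other strand. Cathepsin D lies on the minus strand, its gene at chr1:206956945-206968821 and the stretch shown at chr1:206968822-206969071. Cathepsin Y lies on the minus strand, its gene at chr3:183643077-183653847 and the stretch shown at chr3:183653848-183654097. Cathepsin K lies on the plus strand, its gene at chr2:185747548-185758512 and the stretch shown at chr2:185747298-185747547. Myelencephalon specific protease lies on the plus strand, its gene at chr1:103415411-103422682 and the stretch shown at chr1:103415266-103415410, shorter because a longer transcript of the gene starts upstream of the start used by the table.
Ctsd: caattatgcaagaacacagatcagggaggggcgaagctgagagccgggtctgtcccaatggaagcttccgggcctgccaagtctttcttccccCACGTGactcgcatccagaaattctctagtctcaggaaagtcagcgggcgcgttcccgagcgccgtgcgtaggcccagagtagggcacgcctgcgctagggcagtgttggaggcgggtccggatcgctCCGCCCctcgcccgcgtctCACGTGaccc
Ctsz: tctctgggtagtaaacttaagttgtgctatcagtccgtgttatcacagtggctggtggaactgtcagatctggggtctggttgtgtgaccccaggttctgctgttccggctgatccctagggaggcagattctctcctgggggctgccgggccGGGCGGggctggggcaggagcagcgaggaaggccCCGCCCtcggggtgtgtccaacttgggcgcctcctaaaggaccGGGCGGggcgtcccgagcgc
Ctsk: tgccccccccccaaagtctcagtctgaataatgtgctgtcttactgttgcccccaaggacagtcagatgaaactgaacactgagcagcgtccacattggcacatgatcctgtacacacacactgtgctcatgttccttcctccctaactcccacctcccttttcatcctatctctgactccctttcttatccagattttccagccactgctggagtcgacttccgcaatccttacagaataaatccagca
Klk6: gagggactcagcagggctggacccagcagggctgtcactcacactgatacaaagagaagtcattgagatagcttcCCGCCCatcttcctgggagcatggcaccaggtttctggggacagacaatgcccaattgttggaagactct

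Cathepsin D was the only promoter of the 4 with the letters CACGTG, at 157 to 152 and at 10 to 5 bases before the start, and it also held CCGCCC at 29 to 24 bases before it. CACGTG was present in 5.59% of 33469 rat promoters, and all shares and GC contents here are over the 250 bases before each start. For myelencephalon specific protease the 250 bases before the start given by the table were searched too, of which 145 are shown. Cathepsin Y held the GC-box 3 times, at 97 to 92, 63 to 58 and 20 to 15 bases before the start, and myelencephalon specific protease held it at 175 to 170 bases before the start given by the table. GGGCGG was found in 30.5% of promoters. The stretch of cathepsin K held neither, and its GC content of 49.6% was below the 63.2% of cathepsin D and the 64.0% of cathepsin Y, against a median of 51.2% over all promoters. TGANTCA, the AP-1 motif, and TATAAA, also searched on both strands, were in none of the 4 and in 6.34% and 12.9% of all promoters. These matches describe letters only, and binding was not measured.

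At 4 dpi, cathepsin D, cathepsin Y and myelencephalon specific protease were upregulated in injured cortex, by 1.83 to 2.21-fold on average, and every array showed the direction. At 1 dpi only cathepsin K passed both limits, and cathepsin D was close to equal on both sides. A feature was called upregulated at an adjusted p of 0.02 or less with a mean log2 ratio above 0.7. At 1 dpi, 1 of 4 proteases was called, against 3.90% of the 4952 features tested. At 4 dpi, 3 of the 3 proteases tested were called, against 2.63% of 3191 features. The clones are known by name because the study listed them as changed on these same arrays, so these counts are no independent evidence of their direction. None of the 4 was called downregulated, against 1.51% of features at 1 dpi and 0.376% at 4 dpi.

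**Figure D1:**
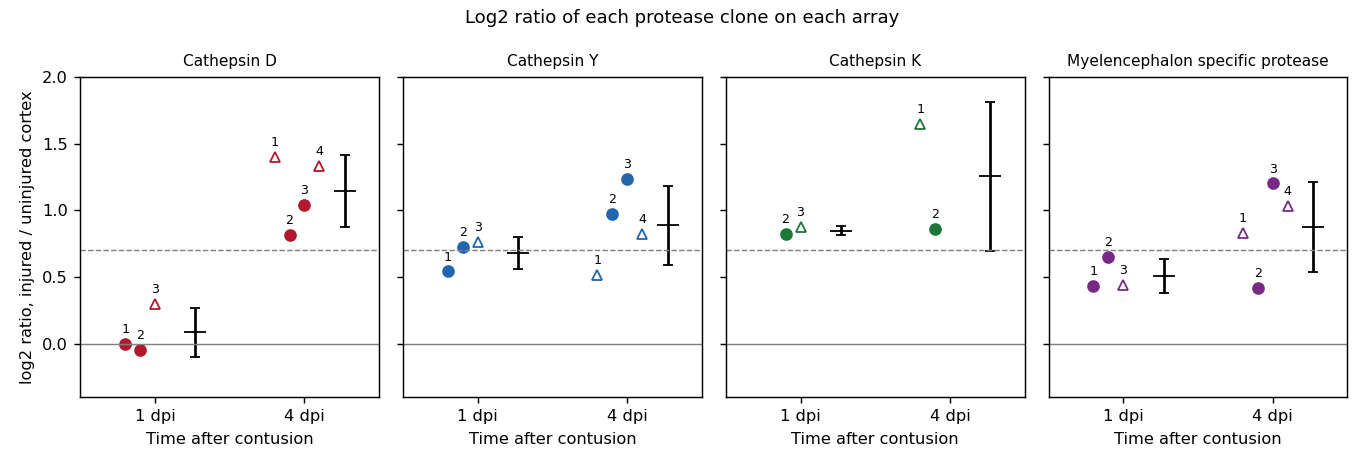
Log2 ratio of injured to uninjured cortex (vertical axis) for each of the 4 proteases at 1 dpi and 4 dpi, with 1 point per array, and the mean with its SD for each group. The points of cathepsin D at 4 dpi lie between 0.81 and 1.40, above all its points at 1 dpi, whereas the groups of cathepsin Y and of myelencephalon specific protease overlap.

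Cathepsin D, the lysosomal aspartic protease, had log2 ratios of -0.00059, -0.05 and 0.30 in replicates 1 to 3 at 1 dpi. In replicates 1 to 4 at 4 dpi its log2 ratios were 1.40, 0.81, 1.04 and 1.34. The time points did not overlap, and replicate 3 was the only array of 1 dpi clearly above 0. The mean log2 ratio at 1 dpi was 0.08 ± 0.19 (SD, n = 3; limma adjusted p = 0.713), with a 95% interval from -0.20 to 0.36. At 4 dpi it was 1.15 ± 0.27 (SD, n = 4; limma adjusted p = 0.000388), a 2.21-fold difference between the sides, and 33 of the features tested had a larger mean. The sign of the small mean at 1 dpi was not stable, since without replicate 3 it was -0.02.

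Cathepsin Y, the carboxypeptidase, had log2 ratios of 0.54, 0.73 and 0.76 at 1 dpi. At 4 dpi its log2 ratios were 0.52, 0.97, 1.23 and 0.82. All 7 arrays were above 0, and the lowest of 4 dpi, in replicate 1, lay below all those of 1 dpi. The mean was 0.68 ± 0.12 (SD, n = 3; limma adjusted p = 0.00475) at 1 dpi, a 1.60-fold difference that missed the size limit of 0.7 narrowly, and without replicate 1 it was 0.75 and passed. At 4 dpi the mean was 0.89 ± 0.30 (SD, n = 4; limma adjusted p = 0.00187), a 1.85-fold difference that was called. The call at 4 dpi was lost where every array had to exceed 0.7.

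Cathepsin K, the collagenase, gave a value on only 4 of 7 arrays, and was missing at each time from the arrays with the fewest measured features. At 1 dpi its log2 ratios were 0.82 in replicate 2 and 0.87 in replicate 3. At 4 dpi they were 1.65 in replicate 1 and 0.86 in replicate 2. All 4 values were above 0.7, and the groups overlapped. The mean at 1 dpi was 0.85 ± 0.04 (SD, n = 2; limma adjusted p = 0.00587), a 1.80-fold difference, called upregulated. That call was lost, with an adjusted p of 0.0248 in limma, where the spread was estimated over both time points. At 4 dpi the mean of 1.25 ± 0.56 (SD, n = 2) came from too few arrays for the test. In a fit chosen after seeing the data, in which 2 arrays at 4 dpi were enough, it passed with a limma adjusted p of 0.0111 and a 95% interval from 0.78 to 1.72.

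Myelencephalon specific protease, the secreted serine protease, had log2 ratios of 0.43, 0.65 and 0.44 at 1 dpi. At 4 dpi they were 0.83, 0.42, 1.20 and 1.03. Every array was above 0, and 3 of the 4 arrays of 4 dpi were above all those of 1 dpi, while replicate 2 was below them. The mean at 1 dpi was 0.51 ± 0.13 (SD, n = 3; limma adjusted p = 0.0201), which missed both limits, that of 0.02 narrowly. The adjusted p passed 0.02 under some alternatives, as at 0.0108 in limma with a dye term, and not under others, as at 0.104 in limma without replicate 2. The mean stayed below 0.7 under all of them. At 4 dpi it was 0.87 ± 0.34 (SD, n = 4; limma adjusted p = 0.0031), a 1.83-fold difference that was called. As for cathepsin Y, the call at 4 dpi was lost where every array had to exceed 0.7.

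The change of the response from 1 to 4 dpi was tested in a joint fit of the 7 arrays, for the 3188 features with enough values at each time. Cathepsin D was higher at 4 dpi than at 1 dpi by 1.06 in mean log2 ratio (95% interval from 0.70 to 1.43; limma adjusted p = 0.00583), a 2.09-fold change, and 29 features had a larger difference. It was 1 of 3 proteases called higher, against 3.48% of all features, and none was called lower, against 1.51%. The difference of cathepsin Y was 0.21 (95% interval from -0.15 to 0.57; limma adjusted p = 0.548) and that of myelencephalon specific protease 0.36 (95% interval from -0.02 to 0.75; limma adjusted p = 0.288). Neither passed the limit of 0.05, and both intervals include 0. With an array left out, the difference of cathepsin Y ran from 0.09 (without replicate 3 of 4 dpi) to 0.33 (without replicate 1 of 4 dpi). That of myelencephalon specific protease ran from 0.25 to 0.52, and neither passed in any of these fits. Cathepsin K was not tested.

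**Figure D2:**
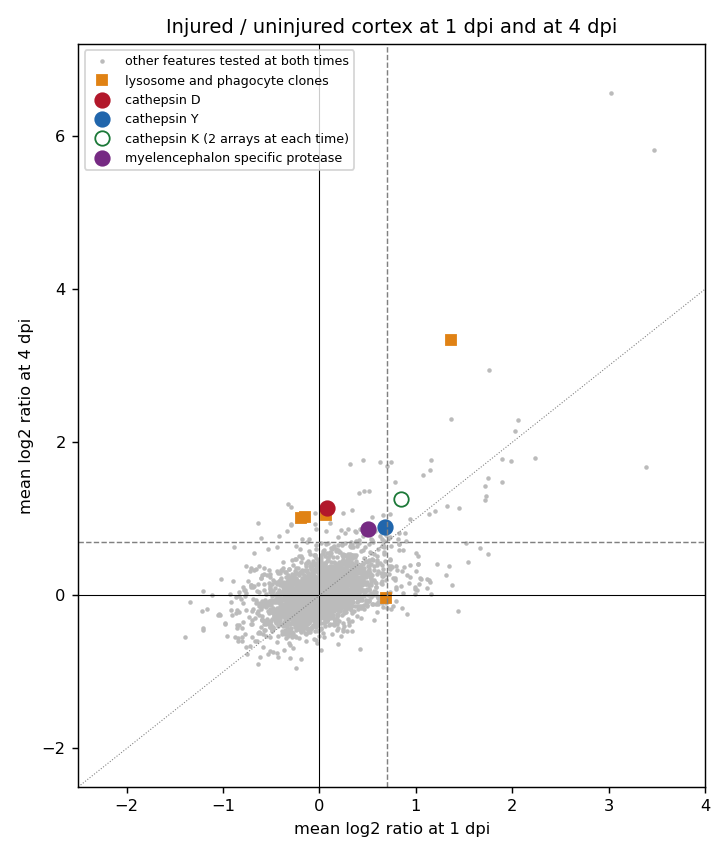
Mean log2 ratio at 4 dpi (vertical axis) against that at 1 dpi (horizontal axis) for all features tested at both times, with the 4 proteases and the lysosome and phagocyte clones marked, cathepsin K as an open circle because it had 2 arrays at each time. Dashed lines stand at the size limit of 0.7, and cathepsin D lies near 0 at 1 dpi and at 1.15 at 4 dpi.

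Within arrays, the proteases kept 1 order at 1 dpi and none at 4 dpi. On every array of 1 dpi the log2 ratio of cathepsin Y exceeded that of myelencephalon specific protease, which exceeded that of cathepsin D, and cathepsin K was highest on the arrays that measured it. At 4 dpi cathepsin K led in replicate 1, cathepsin Y in replicates 2 and 3, and cathepsin D in replicate 4. The log2 ratio of cathepsin D minus that of cathepsin Y was -0.59 ± 0.16 (SD, n = 3) on the arrays of 1 dpi and 0.26 ± 0.53 (SD, n = 4) on those of 4 dpi, a change of 0.85 (p = 0.0857, exact permutation test, two-sided; adjusted over the 3 pairs, p = 0.129). Against myelencephalon specific protease, cathepsin D moved from -0.42 ± 0.28 to 0.28 ± 0.31, a change of 0.70 (p = 0.0857, exact permutation test, two-sided; adjusted p = 0.129). Cathepsin Y minus myelencephalon specific protease went from 0.17 ± 0.14 to 0.02 ± 0.39 (p = 0.543, exact permutation test, two-sided; adjusted p = 0.543). The 3 pairs were chosen after seeing the data, and the smallest p that 35 splits of the arrays allow is 0.0286, so a difference between proteases in their change with time was not shown by these tests.

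Replicate 1 of 4 dpi held the highest value of cathepsin D and of cathepsin K and the lowest of cathepsin Y. Without it, the means at 4 dpi were 1.06 for cathepsin D, 1.01 for cathepsin Y and 0.88 for myelencephalon specific protease, and all were still called. The difference of cathepsin D between the times was then 0.98 (limma adjusted p = 0.00863). Cathepsin D and cathepsin Y also differed with the dye of the injured cortex, in opposite directions at 4 dpi. There cathepsin D was at 0.81 and 1.04 on the arrays with injured cortex in Cy5 and at 1.34 and 1.40 on those in Cy3, and cathepsin Y was at a mean of 1.10 in Cy5 and of 0.67 in Cy3. Myelencephalon specific protease had means of 0.81 in Cy5 and 0.93 in Cy3, and its Cy5 arrays lay on both sides of the Cy3 arrays. Cathepsin K at 4 dpi was at 1.65 on its array in Cy3, which was replicate 1, and at 0.86 on its array in Cy5. At 1 dpi replicate 3 was the only array with injured cortex in Cy3, and cathepsin D was at 0.30 there, against a mean of -0.02 in Cy5. Cathepsin Y was at 0.76 there, against a mean of 0.63 in Cy5, the reverse of its order at 4 dpi. The lower of its values in Cy3 at 4 dpi was that of replicate 1. No test was run within a dye. With dye as a term in the fit, the difference of cathepsin D was 1.00 (limma adjusted p = 0.00201).

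The clones with the profile most like each protease were taken as the nearest by root mean square difference of log2 ratios over the 7 arrays, among 96 named clones with a value on all of them. For cathepsin D these were ferritin light chain, the iron store subunit, at 0.292, granulin, a glycoprotein sorted to lysosomes, at 0.311, mrg1 at 0.321, osteonectin, a matrix glycoprotein, at 0.325, and glutathione reductase at 0.332. For cathepsin Y they were annexin III at 0.190, spermidine/spermine N1-acetyltransferase at 0.201, CD24 at 0.274, poly A binding protein cytoplasmic 1 at 0.275 and TIMP-2 at 0.279. For myelencephalon specific protease they were transferrin, the iron carrier that oligodendrocytes make in brain, at 0.198, glutathione reductase at 0.210, thymosin beta-10 at 0.231, spermidine/spermine N1-acetyltransferase at 0.239 and CD24 at 0.255. Cathepsin K could be compared on 4 arrays only, with 155 clones, and its nearest was cyclin D1 at 0.331. Cathepsin Y and myelencephalon specific protease shared spermidine/spermine N1-acetyltransferase and CD24 among their 5 nearest, and cathepsin D shared glutathione reductase with myelencephalon specific protease. These distances are a description, and the named clones were all listed by the study for changes on these arrays.

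**Figure D3:**
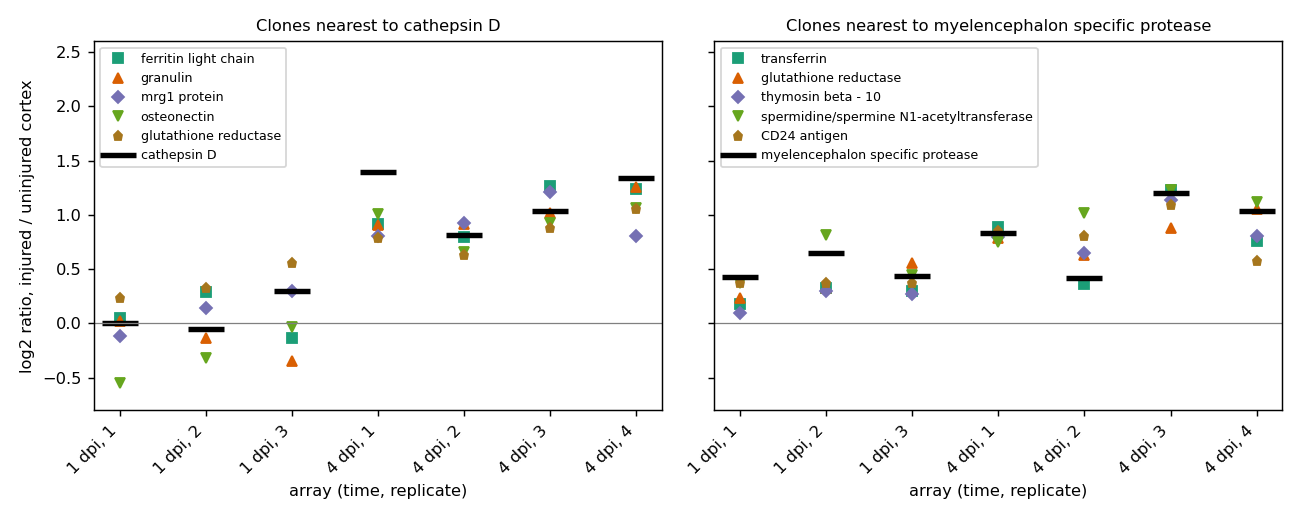
Log2 ratio (vertical axis) on each array for cathepsin D and for myelencephalon specific protease, each with its nearest clones. The clones were picked as the nearest, so that they follow the protease by choice, at distances of 0.292 to 0.332 for cathepsin D.

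Genes of the lysosome and of phagocytosis were compared with the proteases, as 5 clones that the study listed as upregulated. At 1 dpi 1 of 5 was called upregulated (3.90% of all features), with a median log2 ratio of 0.07 over the list and of 0.01 over all features. Without replicate 1 of 1 dpi 2 of 5 were called, the second being Nramp2 at 0.79 (limma adjusted p = 0.00072). At 4 dpi 4 of 5 were called (2.63% of all features), with a median of 1.02 against -0.01. Granulin had mean log2 ratios of -0.15 ± 0.19 (SD, n = 3) at 1 dpi and 1.02 ± 0.16 (SD, n = 4) at 4 dpi, and ferritin light chain 0.07 ± 0.21 (SD, n = 3) and 1.05 ± 0.23 (SD, n = 4). Both were also the clones nearest to cathepsin D in profile, so their likeness to it adds nothing further. Between the times, granulin was higher at 4 dpi by 1.17 (limma adjusted p = 0.00198), ferritin light chain by 0.98 (limma adjusted p = 0.00678), an acid sphingomyelinase-like phosphodiesterase by 1.21 (limma adjusted p = 0.00923) and osteoactivin, a membrane glycoprotein of phagocytes, by 1.97 (limma adjusted p = 0.00583). The calls of granulin, ferritin light chain and osteoactivin were kept whichever array was left out, and that of the phosphodiesterase wherever it could be refitted, since it had values on 2 arrays of 1 dpi and was not tested without replicate 2 or replicate 3 of that group. Nramp2, an iron transporter, was lower at 4 dpi by -0.73 (limma adjusted p = 0.0364), a call lost without any 1 of 5 of the arrays, with an adjusted p of 0.0690 to 0.137.

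Of 6 other peptidases listed by the study, 3 could be used, since the values under the clone IDs of cathepsin B, cathepsin L and calpain 2 differed from those listed. All 3 came from the study's list of upregulated clones, so their direction is no independent evidence. They were called upregulated at 1 dpi (3.90% of all features), with a median log2 ratio of 1.08 (0.01 over all features). They were tissue plasminogen activator, the serine protease that turns plasminogen into plasmin, at 1.54 ± 0.14 (SD, n = 3), endothelin-converting enzyme at 1.08 ± 0.50 (SD, n = 3) and carboxypeptidase D at 0.94 ± 0.13 (SD, n = 3). At 4 dpi neither of the 2 tested was called by limma or by SAM, although both had an unadjusted p below 0.05, and the median was 0.41 (-0.01 over all features). Without replicate 1 of 4 dpi the median was 0.59, tissue plasminogen activator was at 0.67 in place of 0.43, and again neither was called by limma. Tissue plasminogen activator was lower at 4 dpi than at 1 dpi by -1.11 (limma adjusted p = 0.0173). That call was lost without replicate 1 (limma adjusted p = 0.0911) or replicate 2 (limma adjusted p = 0.0782) of 1 dpi.

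Peptidase inhibitors were represented by 5 usable clones, all from the study's list of upregulated clones, so their direction is no independent evidence. Of these, 3 were called upregulated by limma at 1 dpi (3.90% of all features), with a median log2 ratio of 0.73 (0.01 over all features). At 4 dpi limma called 4 (2.63% of all features), with a median of 1.72 (-0.01 over all features), and SAM called all 5. Alpha-2-macroglobulin, which traps proteases of all classes, had 0.32 ± 0.13 (SD, n = 3) and later 1.72 ± 0.38 (SD, n = 4), and was the only one called higher at 4 dpi, by 1.40 (limma adjusted p = 0.00258). TIMP-2, an inhibitor of matrix metalloproteinases, had means of 0.73 ± 0.38 (SD, n = 3) and 1.07 ± 0.19 (SD, n = 4), and its call at 1 dpi was lost without replicate 2 or 3. CPI-26, with values on 2 arrays of 1 dpi, was not tested there without replicate 1 or 3, so that 2 of 4 inhibitors were called without replicate 1, 2 of 5 without replicate 2 and 1 of 4 without replicate 3. TIMP-1 was at 3.38 ± 0.12 (SD, n = 3) at 1 dpi and at 1.68 ± 1.47 (SD, n = 4) at 4 dpi, and at 4 dpi it was not called by limma but was called by SAM. Without replicate 1 of 4 dpi its mean was 2.40 and limma called all 5 inhibitors there. The median of the list was then 2.17, and CPI-26 was at 3.11, against 2.29 with replicate 1. The calls at 4 dpi of CPI-26 (without replicate 2, 3 or 4) and of pancreatic secretory trypsin inhibitor type II, at 1.74 (without replicate 3), were lost in fits that kept replicate 1, where both had their lowest value. Without replicate 1 the latter was at 2.17. Without replicate 3, 2 of 5 inhibitors were called. Cystatin beta, and also cystatin C and neuroserpin, which the study listed among downregulated clones, were not analysed here, so the list holds no clone chosen for a lower value.

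**Figure D4:**
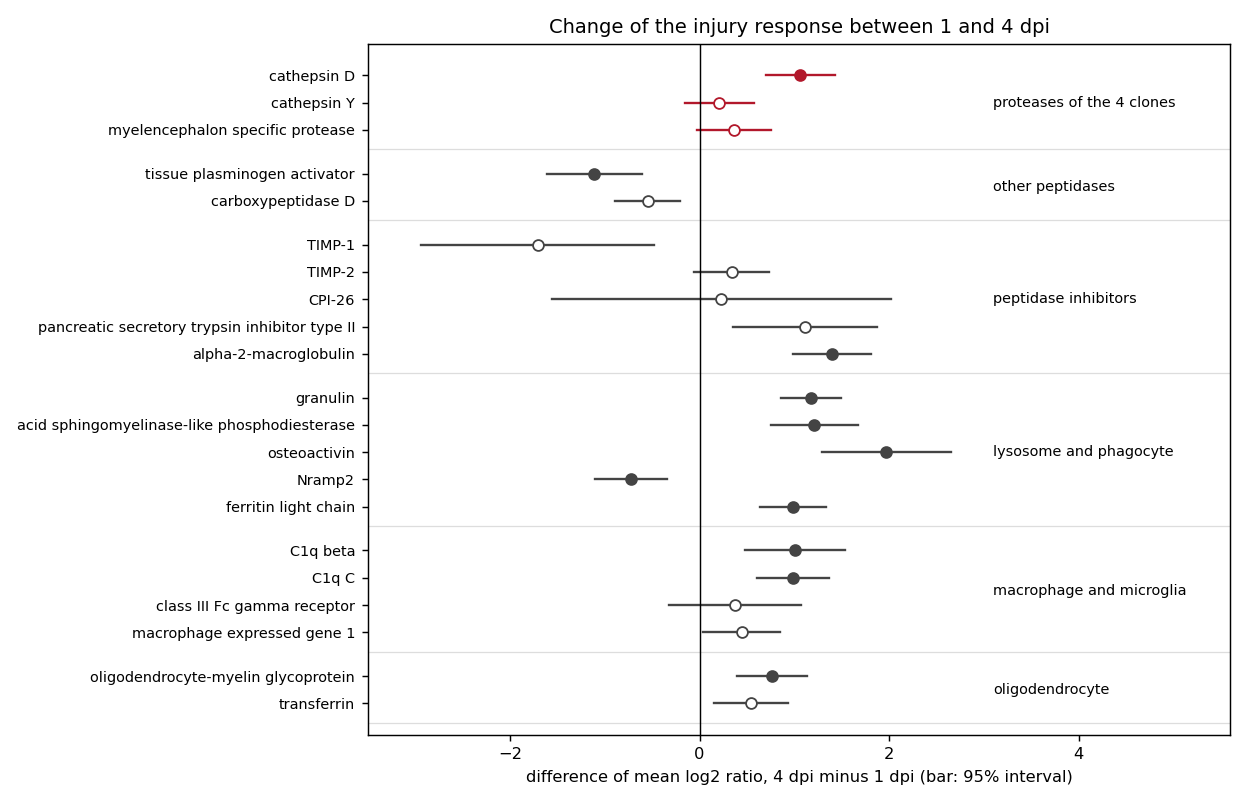
Difference of the mean log2 ratio, 4 dpi minus 1 dpi (horizontal axis), with its 95% interval as a bar, for the proteases and the clones of 5 lists tested at both times. Filled points passed the limit of 0.05, among them cathepsin D at 1.06, and cathepsin Y at 0.21 and myelencephalon specific protease at 0.36 did not.

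Markers of other cells were set beside the proteases. Of 5 macrophage and microglia clones, all from the study's list of upregulated clones, 4 were called upregulated at 1 dpi (3.90% of all features), with a median log2 ratio of 0.74 (0.01 over all features). At 4 dpi 4 of the 4 tested were called (2.63% of all features), with a median of 1.45 (-0.01 over all features). The mean over these clones ran from 0.60 to 0.93 on the arrays of 1 dpi and from 0.91 to 1.70 on those of 4 dpi. C1q C, a chain of the complement protein made by microglia and macrophages, was higher at 4 dpi by 0.99 (limma adjusted p = 0.00923), and C1q beta by 1.00 (limma adjusted p = 0.0372). The first call was lost without replicate 1 of 1 dpi (limma adjusted p = 0.0533), and the second without any 1 of 5 of the arrays, with an adjusted p of 0.0536 to 0.147. At 1 dpi the call of C1q beta was lost without replicate 2 and that of C1q C without replicate 3, and since MHC class II DM beta had values on 2 arrays and was not tested in those fits, 2 of 4 clones were called in each. At 4 dpi the call of class III Fc gamma receptor was lost without replicate 2, 3 or 4, which left replicate 1 in place. Without replicate 1 the median at 4 dpi was 1.72. Their part in the rise of cathepsin D was not tested.

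Oligodendrocytes, a main source of myelencephalon specific protease, were represented by 2 clones. Transferrin came from the study's list of upregulated clones and oligodendrocyte-myelin glycoprotein from its list of downregulated clones. Their direction is thus no independent evidence. At 1 dpi 1 of 2 was called downregulated (1.51% of all features) and 0 upregulated. At 4 dpi 1 of 2 was called upregulated (2.63% of all features) and 0 downregulated. Transferrin had a mean of 0.27 ± 0.08 (SD, n = 3) at 1 dpi and was called at 4 dpi with 0.81 ± 0.36 (SD, n = 4; limma adjusted p = 0.00504), near the 0.87 of myelencephalon specific protease at 4 dpi but below its 0.51 at 1 dpi. The call was lost without replicate 3 or replicate 4. Oligodendrocyte-myelin glycoprotein was called downregulated at 1 dpi, at -0.78 ± 0.30 (SD, n = 3), a call lost without replicate 1 or 2, and was at -0.01 at 4 dpi. It was higher at 4 dpi by 0.76 (limma adjusted p = 0.0239), a call lost without any 1 of 4 of the arrays. The mean of both ran from -0.41 to -0.07 on the arrays of 1 dpi and from 0.06 to 0.54 on those of 4 dpi. At 1 dpi transferrin had the sign of the protease and oligodendrocyte-myelin glycoprotein the opposite one. Of 7 neuron clones, all from the study's lists of changed clones, 2 were called upregulated (3.90% of all features) and 2 downregulated (1.51%) at 1 dpi, with a median of -0.43 (0.01 over all features). At 4 dpi 1 of the 6 tested was called upregulated (2.63% of all features) and 3 downregulated (0.376%), with a median of -0.57 (-0.01 over all features). Calls of 4 of these clones were lost with 1 array left out, and without replicate 3 of 4 dpi 1 of 6 was called downregulated and 0 upregulated. Vimentin, an intermediate filament of reactive astrocytes, came from the study's list of upregulated clones. It was called upregulated at both times (3.90% and 2.63% of all features), with means of 1.37 and 2.31. The part of these cells in the values of the proteases was not tested.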

How the data were processed

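RNA of 7 rats was measured on 7 arrays, 3 of 1 dpi and 4 of 4 dpi, assigned by their labels. Ipsilateral RNA was in Cy5 on 2 arrays of each group. The authors took mean spot intensity minus local background, left out absent or weak spots, turned the ratio to injured over uninjured cortex, normalised by Lowess in the SMA package for R and deposited log2 ratios. Tool versions and scaling between arrays are not given in the sources used here. Array medians differed from 0 by less than 0.01. Signal levels were not analysed here, and precision is limited by how many arrays there were.

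Means were tested against 0 at each time by limma 3.58.1 in R 4.3.3, with lmFit, eBayes and the Benjamini-Hochberg method applied to every feature that had values on 2 or more arrays of 1 dpi or 3 or more of 4 dpi. The limits of 0.02 and 0.7 were taken from the methods, which set them on SAM values and state the size limit for the mean and for each array. Here they were set on limma values and on the mean, and the size limit on every array was an alternative. The difference was tested in 1 limma fit. SAM, which the methods name, was run as an alternative with 10 neighbours for missing values. Other alternatives changed the scaling, the centre, the filter, the fit, the dye term and the replicate block, and left out each array. In simulated data, a log2 change of 2 was given to 200 features, and limma recovered 84.5% of them at 1 dpi (4952 features), 100% at 4 dpi (3191 features) and 98.5% for the difference, with 13 false calls among 3188 features.

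Clone names came from the study's lists of 253 changed clones. Of these, 238 were used. A clone was kept where its mean lay within 0.2 in log2 of the listed value at 1 or both of the times. Of the others, 8 differed by more, 4 were absent from the data, 1 had no value to compare and 2 shared an ID. Named were the 4 proteases, the clones of the lists and the 5 nearest profiles. Proteases and lists were chosen with earlier results of these data known. Values were prepared with pandas 2.3.3 and drawn with matplotlib 3.10.9 in Python 3.11.15.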

Additional observations from a re-analysis of the deposited data

Results flagged for a closer look

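The injury response differed between the times, by limma's test of the difference itself, for cathepsin D, which was higher at 4 dpi by 1.06. It also differed for alpha-2-macroglobulin at 1.40, osteoactivin at 1.97, the acid sphingomyelinase-like phosphodiesterase at 1.21, granulin at 1.17, C1q beta at 1.00, C1q C at 0.99, ferritin light chain at 0.98 and oligodendrocyte-myelin glycoprotein at 0.76, all higher at 4 dpi. Tissue plasminogen activator, at -1.11, and Nramp2, at -0.73, were lower at 4 dpi. Over all features, 3.48% were called higher and 1.51% lower, and all the clones named here came from the study's lists of changed clones. The calls of C1q beta, C1q C, oligodendrocyte-myelin glycoprotein, tissue plasminogen activator and Nramp2 were each lost in 1 or more fits with an array left out.

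At 4 dpi, 1 array lay far from the other 3 for TIMP-1, at -0.51, for pancreatic secretory trypsin inhibitor type II, at 0.45, and for class III Fc gamma receptor, at 0.048. In each case it was replicate 1 and the lowest value. Of 25 groups of 4 arrays checked, these 3 passed Dixon's 95% critical value, a limit that by its definition marks about 5% of groups by chance. No value of cathepsin D, cathepsin Y or myelencephalon specific protease did. With all arrays, the differences between the times did not pass the limit, at -1.71 for TIMP-1 (limma adjusted p = 0.114), 1.12 for pancreatic secretory trypsin inhibitor type II (limma adjusted p = 0.0937) and 0.38 for class III Fc gamma receptor (limma adjusted p = 0.572). Without replicate 1 they were -0.98 for TIMP-1 (limma adjusted p = 0.007), 1.55 for pancreatic secretory trypsin inhibitor type II (limma adjusted p = 0.000198) and 0.77 for class III Fc gamma receptor (limma adjusted p = 0.0149), and passed it.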

How the results depend on the processing

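Of 128 values of single proteases under the alternatives, 121 kept their direction and whether they were called, which at each time takes both limits together. The adjusted p alone crossed 0.02 in some of these. For myelencephalon specific protease at 1 dpi it ran from 0.0189 to 0.104 in limma with an array left out, with means below 0.7. For cathepsin Y at 1 dpi it was 0.0295 in limma without replicate 2. Cathepsin D was called at 4 dpi and in the difference under every alternative run, with differences of 0.98 to 1.18 and adjusted p-values up to 0.0433. Its mean at 1 dpi, not called, turned negative as a median (-0.00059) and ran from -0.024 to 0.15 with an array left out (-0.024 without replicate 3). Cathepsin Y at 1 dpi passed as a median (0.73), and ran from 0.63 to 0.75 with an array left out. Cathepsin K at 1 dpi (0.85) lost its call with both times in 1 fit. Cathepsin Y (0.89) and myelencephalon specific protease (0.87) lost theirs at 4 dpi where every array had to exceed 0.7, their lowest arrays being at 0.52 and 0.42. That rule left 112 up and 26 down over all features at 1 dpi and 35 up and 1 down at 4 dpi, against 193, 75, 84 and 12. Scaling each array to a common median absolute deviation gave 20 down at 4 dpi, and a value on all 7 arrays left 26 lower features in the difference, against 48. With an array left out, counts ran from 121 to 196 up at 1 dpi (121 without replicate 2), from 4 to 15 down at 4 dpi (4 without replicate 3), from 30 to 133 higher and from 7 to 70 lower, the least without replicate 1 of 1 dpi. Animals of the same replicate number differ, and their deviations correlated at -0.17, 0.01 and -0.27 over 2190 features, so the numbers pair nothing. With the replicate number as a block, cathepsin D differed by 1.00 (adjusted p = 0.0198), cathepsin Y by 0.23 and myelencephalon specific protease by 0.31, with 36 features higher and 12 lower. That fit took features with a value on all 7 arrays and used nothing of replicate 4 of 4 dpi, which has no partner. The same arrays and features with the block left off, chosen after seeing the data, gave 62 higher and 16 lower, against 111 and 48 in the reported fit. The causes were not tested. With 2 to 4 arrays per mean, small changes of cathepsin Y and myelencephalon specific protease between the times could not be resolved.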
